A study of Rattus norvegicus with 12 samples.

Results

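The nucleus accumbens and the anterior cingulate cortex of TsA-treated, cocaine-taking rats were compared on 6 Affymetrix Rat Genome 230 2.0 arrays, 3 for each structure, of the 12 arrays in the series. Arrays entered by their labelled structure and treatment, and no vehicle array was used in this comparison. All animals of both structures were male Wistar rats that nosepoked for intravenous cocaine (0.3 mg/kg in 40 µl) in 4 daily sessions of 2 h and were killed 2 h after the fourth. The labels do not spell out TsA, the common short name of the histone deacetylase inhibitor trichostatin A. Its dose and route and the age of the rats are not given in the sources used here. Each array carried RNA pooled from 2 rats, and the labels do not say whether 1 pool of rats gave both structures. No saline-taking or drug-naive group is among these samples, so all rats described below had taken cocaine, and all had TsA except those of the vehicle arrays read at the end.

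The nucleus accumbens is the ventral part of the striatum. Most of its neurons are medium spiny neurons, which release GABA, receive dense dopamine input and fall into a direct pathway class with D1 receptors and an indirect pathway class with D2 receptors. The anterior cingulate cortex is a layered cortex whose principal cells are glutamatergic pyramidal neurons, mixed with several classes of GABAergic interneurons. Dopamine acts in medium spiny neurons through adenylyl cyclase, protein kinase A and phosphatase regulators, a cascade that cocaine engages by blocking dopamine reuptake.

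The structures differed widely. The signal of each probe set is the linear MAS5 value, and differences are accumbens minus cortex on the log2(signal + 16) scale, fitted with limma and adjusted by the Benjamini-Hochberg method over all 31042 probe sets. At an adjusted p under 0.05, 6946 probe sets (22.4%) passed, 4023 higher and 2923 lower in the accumbens. With the brightest probe set kept for each gene, 3555 of 14217 genes (25.0%) passed, 1926 higher (13.5%) and 1629 lower (11.5%). Of these, 307 were higher and 285 lower by at least 2-fold, and 56 and 46 by at least 4-fold. The 3 arrays of each structure did not overlap for 41.4% of the genes. Among the 3555 genes that passed, only 7 had overlapping arrays. The separation of arrays described below for genes that passed therefore follows from the call and is not further evidence. Across probe sets the correlation was 0.990 to 0.994 within a structure and 0.960 to 0.967 between structures. With 3 arrays against 3 the number of arrays limits the precision, and since no label says that replicates came from separate pools, the p-values measure only the spread between these arrays, which may be technical.

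The labelled tissues were checked against defining markers. All 14 measured markers of striatal projection neurons were higher in the accumbens and all 11 measured markers of cortical glutamatergic neurons were lower, with median log2 differences of 3.11 and -1.96. The arrays were washed in 3 batches, and no batch held TsA arrays of both structures, so batch and structure cannot be told apart within these 6 arrays. When all 12 arrays were fitted with wash batch as a term, 2162 probe sets passed. The 24 genes described next were among them in that fit. There the third accumbens vehicle array is the only link between the batch of the accumbens TsA arrays and the other batches. The first cortex TsA array, the only TsA array in its batch, does not enter the difference. The counts given below with wash batch as a term therefore lean on that vehicle array and are a limited check. In bulk tissue, more cells of a type cannot be told apart from more RNA per cell, which holds for every value below.

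The gene with the largest difference was Cartpt, the precursor of the CART peptides, which are long studied in the accumbens for their regulation by psychostimulants. Its signal was 36.8, 22.3 and 35.8 on the cortex arrays and 1159, 1233 and 880.5 on the accumbens arrays, a log2 difference of 4.54 ± 0.16 (SE; adjusted p = 5.51e-07). Adora2a, the excitatory adenosine receptor of indirect pathway neurons, read 15.8, 18.2 and 25.8 on the cortex arrays and 696, 827 and 635 on the accumbens arrays (4.36 ± 0.13). For both genes every accumbens array lay far above every cortex array, with no overlap. Values in parentheses here and below are log2 differences, with their SE after ±.

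Receptors, peptides and regulators of medium spiny neurons filled most of the other places among the 12 highest genes. Drd2, the dopamine D2 receptor, had a signal of 26.1, 31.5 and 23.5 on the cortex arrays and 597, 705 and 562 on the accumbens arrays (3.89 ± 0.11). That of Drd1, the D1 receptor, was 105, 116 and 81.5 on the cortex arrays and 1178, 1136 and 1170.5 on the accumbens arrays (3.34 ± 0.11). Gpr6, an orphan receptor that raises cyclic AMP and marks indirect pathway neurons, read 1.90, 2.13 and 1.97 on the cortex arrays and 238, 289 and 221 on the accumbens arrays (3.87 ± 0.12). The groups did not overlap for any of these receptors, and Gpr6 lay in the cortex under 17.2, the 40th percentile of mean signal over these arrays, so its difference is understated by the added constant. Pdyn, the dynorphin precursor, gave 119, 122 and 151 on the cortex arrays and 1560.3, 1669.7 and 1536 on the accumbens arrays (3.46 ± 0.09). Nts, the neurotensin precursor, gave 3.15, 4.98 and 2.91 on the cortex arrays and 294, 270.1 and 369 on the accumbens arrays (4.04 ± 0.13). Nts was close to 0 on all cortex arrays, and the same understatement applies to it. It is also among the markers of neighbouring regions read below.

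The remaining high genes were regulators and proteins with less settled roles. Rarb, a nuclear receptor for retinoic acid, stood at 48.4, 40.9 and 52.2 on the cortex arrays and 723, 724 and 594 on the accumbens arrays (3.46 ± 0.10). Rgs9, a GTPase-accelerating protein that shortens dopamine receptor signals in striatum, read 47.5, 50.6 and 38.3 on the cortex arrays and 599.6, 599 and 552 on the accumbens arrays (3.29 ± 0.09, but 0.22 at another probe set). Strip2, which encodes a striatin-interacting protein, differed by 3.51 ± 0.09, Pcp4l1, a relative of the calmodulin regulator Pcp4, by 3.50 ± 0.08, and Syndig1l, a relative of the synapse protein Syndig1, by 3.41 ± 0.08. The signal of Strip2 was 38.4, 32.5 and 31.7 on the cortex arrays and 600.5, 555 and 516 on the accumbens arrays. That of Syndig1l was 35.04, 28.6 and 30.8 on the cortex arrays and 484, 469 and 517 on the accumbens arrays. Again no cortex array reached the level of any accumbens array. The adjusted p of the 12 genes ranged from 2.13e-07 (Pcp4l1) to 5.51e-07 (Cartpt).

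**Figure D1:**
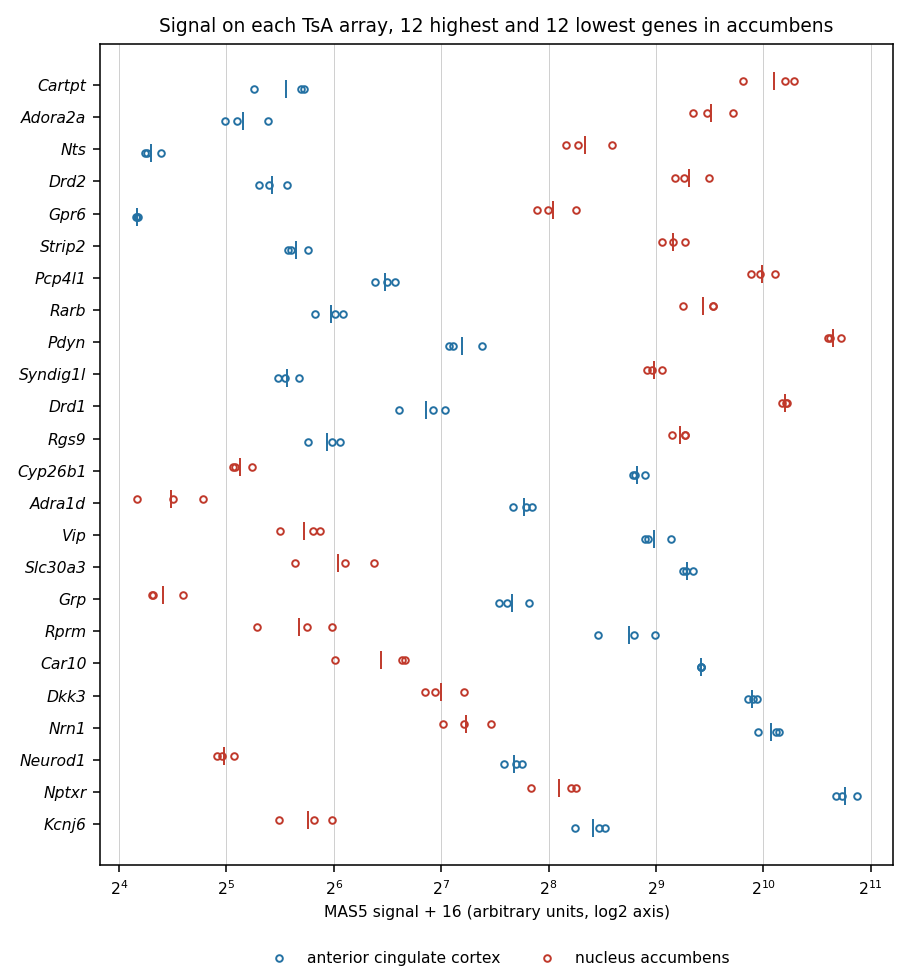
MAS5 signal plus 16 (arbitrary units, log2 axis) on each of the 3 cortex (blue) and 3 accumbens (red) TsA arrays for the 12 highest and 12 lowest genes. Open circles are arrays and vertical ticks are means of the log2 values. For all 24 genes the arrays of the structures form separate groups.

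At the other end stood Cyp26b1, a cytochrome P450 that degrades retinoic acid. Its signal was 424, 430.1 and 460.4 on the cortex arrays and 17.8, 21.7 and 17.4 on the accumbens arrays, a log2 difference of -3.70 ± 0.09 (adjusted p = 2.13e-07), with -1.49 at another probe set. Slc30a3, the transporter that loads zinc into glutamatergic vesicles, read 593, 632 and 606 on the cortex arrays and 52.9, 33.9 and 66.9 on the accumbens arrays (-3.25 ± 0.16). Both genes were bright on the 3 cortex arrays and dim or moderate on the 3 accumbens arrays, without overlap. Vip, the vasoactive intestinal peptide precursor made by a class of cortical interneurons, gave 547, 459.7 and 469 on the cortex arrays and 39.9, 29.2 and 42.7 on the accumbens arrays (-3.26 ± 0.12). Grp, the gastrin-releasing peptide precursor, gave 169, 210.1 and 179.9 on the cortex arrays and 8.25, 4.02 and 3.89 on the accumbens arrays (-3.24 ± 0.13). Grp lay under 17.2 in the accumbens, as did Adra1d and Neurod1 below.

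Adra1d, the alpha-1D adrenergic receptor, had 188, 206 and 214 on the cortex arrays and 11.6, 2.02 and 6.65 on the accumbens arrays (-3.28 ± 0.15). Nrn1, neuritin, an activity-regulated protein that promotes neurite growth, had 1098, 975 and 1113 on the cortex arrays and 132, 113 and 161 on the accumbens arrays (-2.84 ± 0.11). Neurod1, a basic helix-loop-helix transcription factor of excitatory neurons, had 191, 200.1 and 175 on the cortex arrays and 15.2, 14.1 and 17.6 on the accumbens arrays (-2.69 ± 0.10). In all 3 genes the lowest cortex array was well above the highest accumbens array. Rprm, a p53-induced regulator of the cell cycle, differed by -3.08 ± 0.19, and Car10, a carbonic anhydrase relative without enzyme activity, by -2.98 ± 0.16. Dkk3, a secreted protein of the Dickkopf family, differed by -2.90 (-1.69 to -0.02 at other probe sets), Nptxr, the neuronal pentraxin receptor, by -2.66 (-0.04 at another probe set), and Kcnj6, the GIRK2 potassium channel, by -2.65 (-1.16 to -0.19 at other probe sets). For these last genes the size of the difference therefore depended on the probe set. The lowest cortex and highest accumbens signals did not overlap for any of the 12 lowest genes.

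Genes of direct pathway neurons were nearly all higher in the accumbens. Of 11 measured genes 9 were higher and 2 lower, with a median of 1.88 (0.024 over all genes). Only 1 was lower with wash batch as a term, or without the third cortex array or the first or the third accumbens array. Beside Pdyn and Drd1, Tac1, the precursor of substance P, read 75.1, 73.96 and 62.2 on the cortex arrays and 926, 773 and 747 on the accumbens arrays (3.26 ± 0.10). Slc35d3, an orphan transporter needed for D1 receptor trafficking in mice, was higher by 2.69, Isl1, a transcription factor that specifies direct pathway neurons, by 1.88, but 0.18 at another probe set, and Ebf1 by 1.01. The muscarinic receptor gene Chrm4 differed by only 0.40. The exceptions were Eya1 (-1.12), a transcriptional coactivator, and Sfxn1 (-0.27), a mitochondrial serine carrier.

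Indirect pathway genes split into a few with very large differences and others that did not pass. Of 11 measured, 6 were higher and 1 lower (63.6%, against 25.0% of all genes), and the median was 0.42. The lower gene did not pass with wash batch as a term, or without the first or the third cortex array or the first or the third accumbens array. Adora2a, Drd2 and Gpr6 led, followed by Penk, the enkephalin precursor, at 316, 304 and 280.2 on the cortex arrays and 3049, 2571 and 2568 on the accumbens arrays (3.12 ± 0.09). Gucy1a1, a subunit of the nitric oxide receptor, was higher by 0.89, while Necab1, a calcium-binding protein, was lower (-0.64). Plxdc1, Ttc12, Grik3 and Oprd1 did not pass, at 0.21, 0.03, -0.04 and -0.06. Each accumbens array exceeded every cortex array for Penk.

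**Figure D2:**
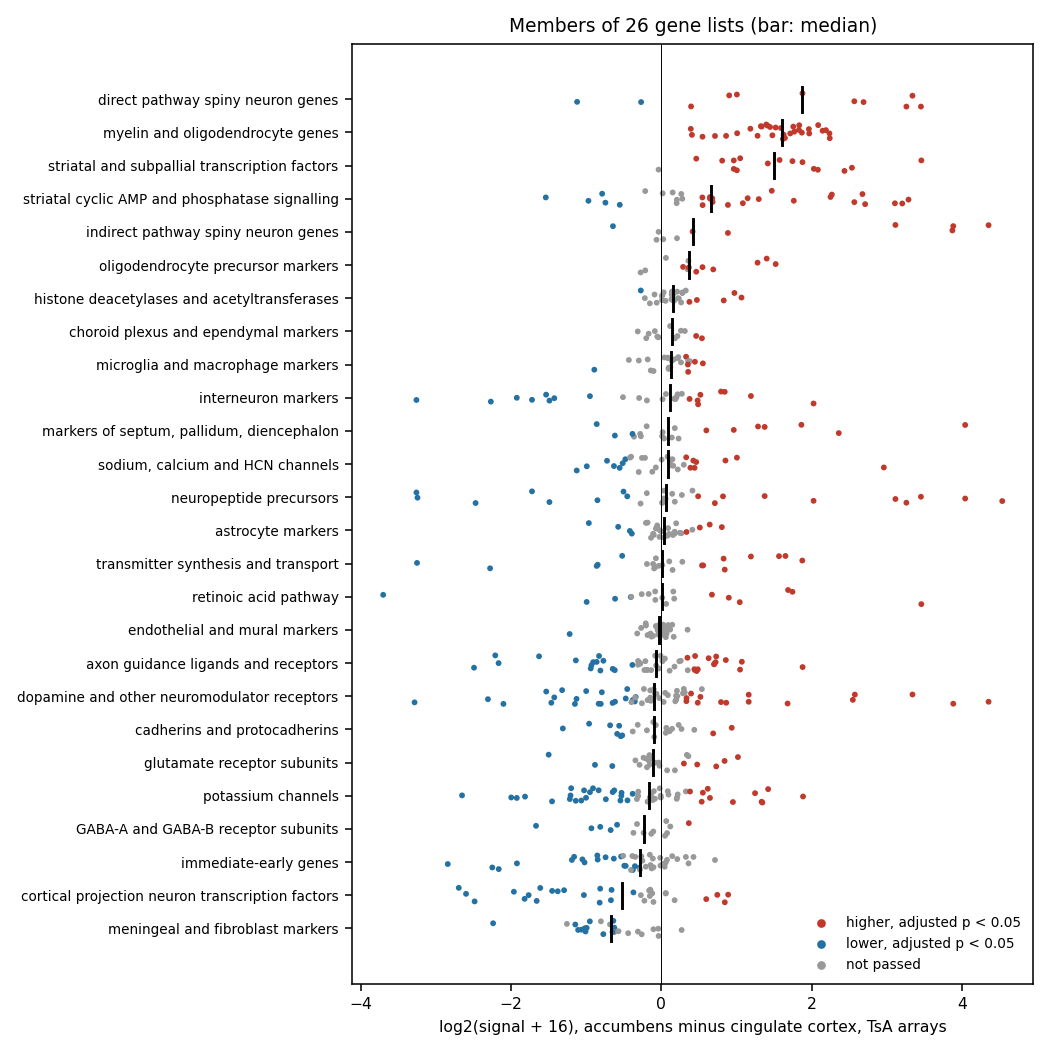
Log2 difference of every measured member of the 26 gene lists, accumbens minus cingulate cortex, on the TsA arrays. Points are genes (red higher, blue lower, grey not passed), and the black bar is the median of the list, from 1.88 for direct pathway genes to -0.67 for meningeal markers.

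The cascade from receptors to cyclic AMP and protein phosphatases followed the same direction for most members. Of 32 genes 20 were higher and 5 lower (median 0.66), a share of 78.1% against 25.0% of all genes. These counts were 19 and 3 with wash batch as a term. Ppp1r1b, which encodes DARPP-32, the phosphatase inhibitor switched on by protein kinase A, read 213, 273 and 249.7 on the cortex arrays and 2424, 2108 and 2169.7 on the accumbens arrays (3.11 ± 0.10). Gnal and Gng7, the G protein subunits that couple dopamine and adenosine receptors to adenylyl cyclase in striatum, were higher by 2.71 and 3.21. Adcy5, the main striatal adenylyl cyclase, was higher by 2.27, but 0.02 at another probe set. The DARPP-32 signals of the structures did not overlap.

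Several enzymes that end the signal were higher too. Pde10a, the phosphodiesterase of medium spiny neurons, had 228, 283 and 284 on the cortex arrays and 1580.1, 1743 and 1612 on the accumbens arrays (2.57 ± 0.09), and the calmodulin-dependent Pde1b was higher by 2.25 and Pde7b by 1.15. Ptpn5, the striatal-enriched tyrosine phosphatase STEP, was higher by 1.76, and Rasgrp2, an activator of Rap1, by 2.68, but 1.16 at another probe set. Members lower in the accumbens were Rgs4 (-1.54), Adcy2 (-0.97), Rgs7 (-0.79), Adcy8 (-0.74) and the kinase subunit gene Prkar1b (-0.55). Adenylyl cyclases and RGS proteins, which shorten G protein signals, thus differed in both directions: Adcy5, Rgs9 and Rgs8 (1.09) were higher, and Adcy2, Adcy8, Rgs4 and Rgs7 lower. Pde2a and Pde1c did not pass (0.20 and 0.02).

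Of 16 transcription factors of striatum and subpallium 15 were higher (93.8%, against 13.5% of all genes) and 0 lower, with a median of 1.496. These counts were 13 and 0 with wash batch as a term. A further 11 of the 27 listed factors were not matched to a probe set. After Rarb came Pbx3 (2.54), Zfp503 (2.44, but -0.28 to 1.91 at others), Foxp2 (2.08) and Dlx5 (2.03). Foxp2, a forkhead repressor of medium spiny neurons, had 84.7, 75.8 and 70.4 on the cortex arrays and 305, 426 and 413 on the accumbens arrays. Bcl11b (CTIP2), needed for medium spiny neuron differentiation in mice, had 423, 449 and 342 on the cortex arrays and 1141, 1345 and 1212 on the accumbens arrays (1.57 ± 0.11). Each accumbens array exceeded each cortex array for both. Six3, required for indirect pathway neurons in mice, was higher by 0.47, and Dlx1 did not pass (-0.04).

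Of 32 transcription factors of cortical projection neurons, 17 were lower and 4 higher (median -0.52), a share of 65.6% against 25.0% of all genes. These counts were 13 and 2 with wash batch as a term. Bhlhe22, which helps set cortical area identity in mice, read 418, 365 and 458 on the cortex arrays and 74.96, 51.9 and 40.96 on the accumbens arrays (-2.60 ± 0.16). Fezf2, the determinant of subcortically projecting layer 5 neurons, read 150.2, 144 and 149.7 on the cortex arrays and 25.4, 23.2 and 30.01 on the accumbens arrays (-1.96 ± 0.10). Neurod6 (-2.48), the upper layer factor Cux2 (-1.82), Tbr1 of layer 6 (-1.61) and the area-patterning factor Nr2f1 (-1.66) were lower as well. The cortex and accumbens arrays were apart for these genes. The 4 members higher in the accumbens were Cux1 (0.89), Pou3f1 (0.85), Tle4 (0.75) and Lmo3 (0.60). Rorb, the layer 4 factor, did not pass (-0.22).

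Genes that make and move transmitters separated by transmitter. Slc32a1, which loads GABA into vesicles, read 140.1, 158 and 151 on the cortex arrays and 515, 605 and 665 on the accumbens arrays (1.88 ± 0.10), and the GABA-synthesizing enzymes Gad2 and Gad1 were higher by 1.57 and 0.84. Cholinergic genes were also higher: the choline transporter Slc5a7 by 1.65, choline acetyltransferase Chat by 1.19 and the vesicular transporter Slc18a3 by 0.83. Slc17a7, the vesicular glutamate transporter VGLUT1 of cortical neurons, read 1079, 1432 and 1265 on the cortex arrays and 247, 164 and 359 on the accumbens arrays (-2.28 ± 0.23), with no overlap between structures. Slc17a6 (VGLUT2) was lower by a log2 value of -0.86, and Gls2, a glutaminase, by -0.85. Genes of dopamine neurons themselves did not pass, with -0.19 for Th, 0.28 for Slc6a3 and -0.10 for Slc18a2, apart from Ddc (0.56). Over the 23 genes of the list, 8 were higher and 5 lower, a share of 56.5% against 25.0% of all genes. These counts were 5 and 3 with wash batch as a term. Astrocytic glutamate transporter genes Slc1a2 (0.15) and Slc1a3 (-0.11) did not pass.

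Genes of the neuropeptide list moved in both directions, 10 of 29 higher and 8 lower, a share of 62.1% against 25.0% of all genes. These counts were 7 and 5 with wash batch as a term. Beside precursors the list holds the binding protein gene Crhbp, which was lower, and the growth factor gene Igf1, which did not pass. The cyclic AMP response element, TGACGTCA, is the site through which the factor CREB acts on several peptide genes, and it reads the same on both strands. Promoter windows from 250 bases before to 50 bases after the transcription start were taken from RefSeq (build GRCr8) and matched by symbol for 22 of the 29 genes. The windows of 4 genes are shown because they are the peptide genes with an entry that differed most, 2 in each direction. Capitals mark the element or its core TGACG on either strand, and each window is printed 5′ to 3′ on the strand of its gene.
Cartpt (chr2:32991186-32991485, minus strand): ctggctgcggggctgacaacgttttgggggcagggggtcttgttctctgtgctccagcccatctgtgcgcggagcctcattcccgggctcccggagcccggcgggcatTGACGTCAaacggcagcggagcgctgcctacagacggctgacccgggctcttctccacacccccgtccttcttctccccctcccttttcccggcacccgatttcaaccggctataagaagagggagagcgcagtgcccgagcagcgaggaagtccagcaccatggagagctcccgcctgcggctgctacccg
Nts (chr7:39460839-39461138, minus strand): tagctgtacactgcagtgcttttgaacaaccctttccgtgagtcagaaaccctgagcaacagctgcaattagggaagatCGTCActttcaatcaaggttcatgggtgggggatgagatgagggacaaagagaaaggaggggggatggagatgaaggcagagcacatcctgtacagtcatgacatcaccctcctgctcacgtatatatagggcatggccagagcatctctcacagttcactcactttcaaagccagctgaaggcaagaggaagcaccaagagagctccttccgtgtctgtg
Vip (chr1:44470230-44470529, plus strand): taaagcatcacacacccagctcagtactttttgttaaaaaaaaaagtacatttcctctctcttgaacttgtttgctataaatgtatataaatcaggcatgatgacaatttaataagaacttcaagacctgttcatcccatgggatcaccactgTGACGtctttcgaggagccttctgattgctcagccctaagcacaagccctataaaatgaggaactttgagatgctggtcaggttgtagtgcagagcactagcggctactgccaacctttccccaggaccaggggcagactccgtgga
Grp (chr18:61658405-61658704, plus strand): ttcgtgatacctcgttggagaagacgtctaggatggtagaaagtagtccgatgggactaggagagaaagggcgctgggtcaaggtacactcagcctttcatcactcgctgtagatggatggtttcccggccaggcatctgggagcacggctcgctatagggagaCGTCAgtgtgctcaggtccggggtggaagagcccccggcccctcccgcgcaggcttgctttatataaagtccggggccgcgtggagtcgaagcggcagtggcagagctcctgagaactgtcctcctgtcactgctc

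The first match lies 142 bases before the start in Cartpt, 171 in Nts, 97 in Vip and 86 in Grp. The whole element was found in 4 of the 22 windows, in 2 of the 8 of genes higher in the accumbens, 0 of the 6 of lower genes and 2 of the 8 that did not pass. The core TGACG, which overlaps the whole element, was found in 12 of 22, namely 6 of 8 higher, 3 of 6 lower and 3 of 8 not passed. Among all 33469 promoters searched, 1.83% hold the whole element and 21.2% the core. A match of letters is a description of the window and not a binding site.

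Among the higher peptide genes, Tac3, the neurokinin B precursor, read 32.05, 38.7 and 42.5 on the cortex arrays and 172, 180.3 and 266 on the accumbens arrays (2.03 ± 0.16). Trh, the thyrotropin-releasing hormone precursor, read 7.72, 3.80 and 2.64 on the cortex arrays and 38.1, 44.8 and 30.6 on the accumbens arrays (1.38 ± 0.14). The galanin gene Gal (0.82), the secretogranin gene Scg2 (0.71) and Npy (0.49) were higher by less. The groups stood apart for Tac3 and for Trh. Among the lower, Adcyap1, the PACAP precursor, read 155, 161 and 142 on the cortex arrays and 11.6, 12.5 and 19.8 on the accumbens arrays (-2.47 ± 0.12). Cck, the cholecystokinin precursor, read 2296, 2450.2 and 2189 on the cortex arrays and 997, 461 and 711 on the accumbens arrays (-1.72 ± 0.22). Crh, the corticotropin-releasing hormone precursor, was lower (-1.49), as was its binding protein gene Crhbp (-0.85). The median of the list was 0.06, and -0.03 with arrays centred on their medians. Sst, the somatostatin precursor, did not pass (0.27).

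Interneuron genes went both ways: of 26, 8 were higher and 8 lower, a share of 61.5% against 25.0% of all genes. These counts were 4 and 8 with wash batch as a term. Pvalb, the calcium buffer of fast-spiking cells, read 399.8, 402 and 424 on the cortex arrays and 68.9, 58.1 and 93.1 on the accumbens arrays (-2.27 ± 0.13). The channel genes that let those cells fire fast, Kcnc1 and Kcnc2, were lower too (-0.95 and -1.92, but -1.61 to 0.03 at others), and Reln, an extracellular protein of several interneuron classes, stood at -1.53. The Pvalb signals of the structures did not overlap. Higher were Chat and Tac3, described above, Htr3a, a serotonin-gated channel (0.80), the substance P receptor gene Tacr1 (0.52, but -0.21 at another probe set) and Calb1 (0.48), which medium spiny neurons also express. Calb2 and Nos1 did not pass (0.22 and 0.20).

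Receptors for neuromodulators differed in both directions, in some families from member to member. Of 60 genes 15 were higher and 20 lower, a share of 58.3% against 25.0% of all genes. These counts were 11 and 12 with wash batch as a term. Oprk1, the kappa opioid receptor that binds dynorphin, read 1.10, 1.67 and 4.08 on the cortex arrays and 83.1, 111 and 86.3 on the accumbens arrays (2.58 ± 0.13, 1.14 to 1.45 at other probe sets), while the mu receptor gene Oprm1 did not pass (0.31) and the nociceptin receptor gene Oprl1 was lower (-0.83). Kappa receptor signal on the accumbens arrays exceeded that on every cortex array. Dopamine receptors other than Drd1 and Drd2 did not pass: Drd3 stood at 0.19, Drd4 at -0.09 and Drd5 at 0.09.

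Of the serotonin receptors, Htr2c read 282, 235 and 231 on the cortex arrays and 1608, 1686 and 1329.6 on the accumbens arrays (2.55 ± 0.11), and Htr4 (1.68, but 0.53 at another probe set) and Htr1d (1.16) were higher. Htr1a was lower (-0.62), as were Htr5a (-0.35) and Htr7 (-0.34, but -0.02 to -0.00 at others), and Htr2a did not pass (0.03). The Htr2c groups did not overlap. All adrenergic alpha-1 genes that passed were lower, Adra1d and Adra1b (-2.10), while the alpha-2 genes went both ways, with Adra2c (1.16) and Adra2b (0.86, but 0.23 to 0.41 at others) higher and Adra2a (-0.47) lower. Muscarinic genes showed the same mixture: Chrm3 (-1.53) and Chrm2 (-0.45) were lower, Chrm4 was higher and Chrm1 did not pass (-0.23).

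Several peptide receptor genes were lower in the accumbens. The somatostatin receptor gene Sstr1 read 327, 416 and 347 on the cortex arrays and 53.2, 42.2 and 94.3 on the accumbens arrays (-2.31 ± 0.21, -1.28 to -0.04 at other probe sets), and Sstr3 (-0.999) and Sstr2 (-0.80) were lower as well. The neuropeptide Y receptor genes Npy1r and Npy5r stood at -1.46 and -0.79, the cholecystokinin receptor gene Cckbr at -1.13 and the neurokinin B receptor gene Tacr3 at -1.32. Cnr1, the presynaptic cannabinoid receptor, read 984, 909 and 959.6 on the cortex arrays and 321, 312 and 407 on the accumbens arrays (-1.42 ± 0.10), with the cortex arrays all above the accumbens arrays. Tac3 and its receptor gene Tacr3 thus differed in opposite directions, while Pdyn and its receptor gene Oprk1 were both higher in the accumbens.

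**Figure D3:**
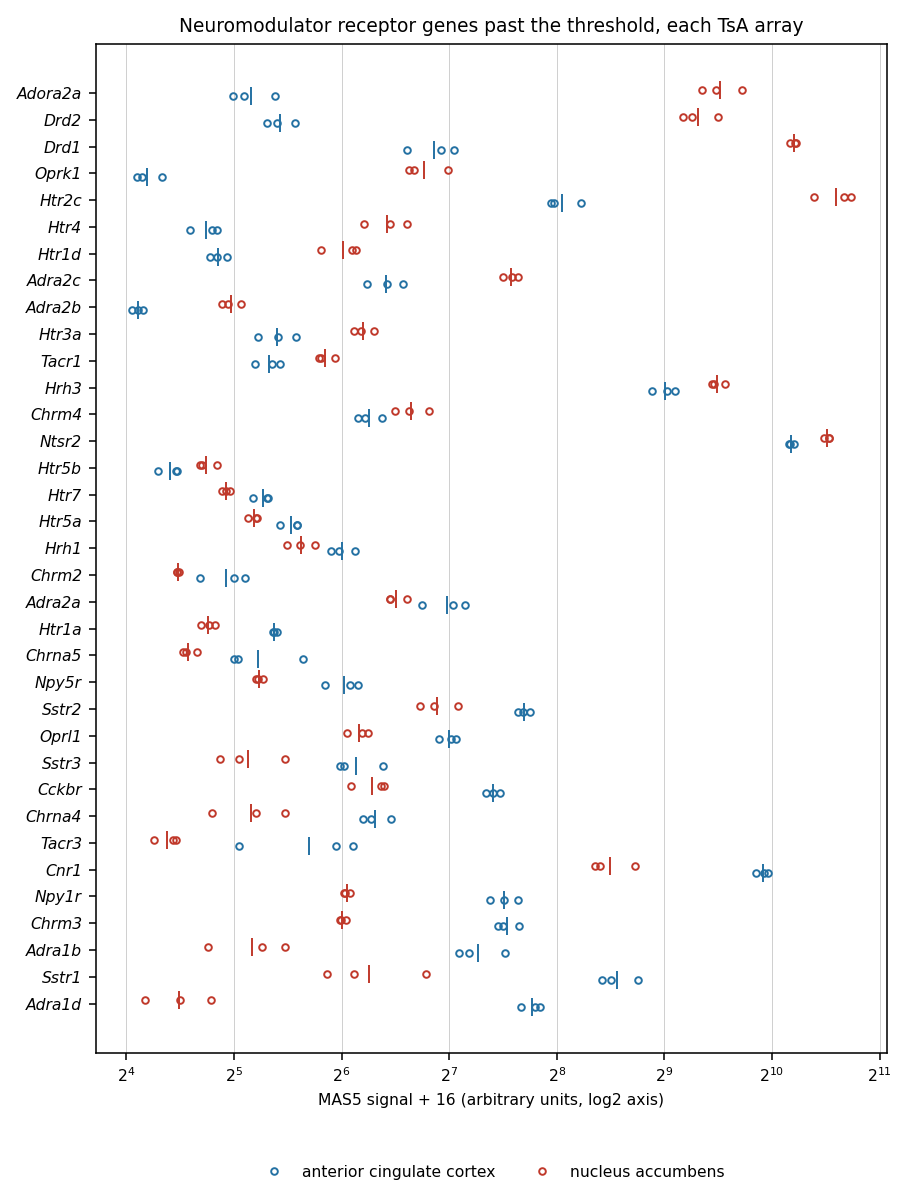
MAS5 signal plus 16 (arbitrary units, log2 axis) of the 35 neuromodulator receptor genes past the threshold, on each cortex (blue) and accumbens (red) TsA array, ordered from the highest to the lowest log2 difference. Ticks are means of the log2 values. Adora2a, Drd2 and Drd1 head the plot and Adra1d ends it.

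Of 15 genes of GABA receptor subunits 5 were lower and 1 was higher, a share of 40.0% against 25.0% of all genes. Gabbr2, the GABA-B subunit that couples to G proteins, read 1110.1, 1222 and 1244 on the cortex arrays and 354, 319 and 427 on the accumbens arrays (-1.67 ± 0.10), and its partner Gabbr1 stood at -0.59, but -0.38 to 0.23 at others. The GABA-A subunit genes Gabrb2 (-0.93), Gabra5 (-0.81) and Gabra3 (-0.67) were lower, Gabra4 was higher (0.37) and Gabra2 did not pass (0.12). Gabbr2 was brighter on each cortex array than on any accumbens array. With wash batch as a term 2 members were higher and 2 lower, and none was higher when any array but the third cortex array was left out. On the vehicle arrays 5 of the 6 genes that passed kept their sign, and 3 passed in the same direction. The list median there was 0.08, against -0.23 with TsA.

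Most ionotropic glutamate receptor genes did not pass the threshold. Of 24 glutamate receptor genes 5 were higher and 3 lower, and with wash batch as a term 0 and 2. The share that passed was 33.3%, against 25.0% of all genes, and without the third cortex array or the first accumbens array 3 were higher. Grin1 (-0.16), Grin2b (-0.20), Gria1 (0.34) and Gria2 (-0.14) did not pass, while Grin2a (-0.65, but -0.25 to -0.02 at others) and Gria3 (-0.88) were lower. Among metabotropic genes, Grm2, a presynaptic autoreceptor gene, read 85.1, 134 and 108 on the cortex arrays and 20.8, 17.96 and 50.6 on the accumbens arrays (-1.498 ± 0.25), whereas Grm4 (1.02), Grm5 (0.84, but 0.35 at another probe set) and Grm3 (0.73) were higher. No accumbens array reached the Grm2 level of a cortex array.

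Potassium channels were more often lower than higher, 23 against 11 of 54. Of the list 63.0% passed, against 25.0% of all genes. With wash batch as a term 18 were lower and 7 higher. The Kv3 genes Kcnc1, Kcnc2 and Kcnc4 (-1.81, but -0.13 at another probe set) were all lower, and so were the genes of G protein-gated channels, Kcnj6, Kcnj9 (-1.45) and Kcnj3 (-1.22, but -1.01 to -0.15 at others). Kcns3, a modifier of Kv2 channels, read 153, 176 and 151 on the cortex arrays and 27.7, 22.3 and 35.2 on the accumbens arrays (-1.997 ± 0.13). The higher genes included those of channels with fast inactivation and their partners: Kcna4 (1.25), Kcnd2 (0.95), Kcnip2 (1.42, but -0.17 to 1.27 at others) and Kcnab1 (1.35). Kcnip2, a calcium sensor bound to Kv4 channels, read 216, 252 and 237 on the cortex arrays and 683, 691 and 597 on the accumbens arrays. Kcna5 (1.89) and the leak channel gene Kcnk2 (1.34) were higher too. Kcns3 and Kcnip2 did not overlap between structures, in opposite directions.

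Of 31 sodium, calcium and HCN channel genes 8 were higher and 7 lower, a share of 48.4% against 25.0% of all genes. These counts were 2 and 1 with wash batch as a term. Scn4b, the beta-4 sodium channel subunit that carries resurgent current in fast-firing cells and is abundant in striatum, read 173, 165 and 237 on the cortex arrays and 1716, 1655 and 1402 on the accumbens arrays (2.96 ± 0.13). Its accumbens signals all exceeded the cortex signals. Cacna2d3 (1.01) and Cacna1h (0.85, but -0.11 at another probe set) were higher, and Cacng2 (-1.12, but -0.20 at another probe set), which encodes the AMPA receptor partner stargazin, and Scn1a (-0.99) were lower. The HCN pacemaker genes measured, Hcn2, Hcn3 and Hcn4, did not pass (-0.12, -0.07 and 0.01). The median of the list was 0.08, and below 0 with dim probe sets left out or arrays centred.

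**Figure D4:**
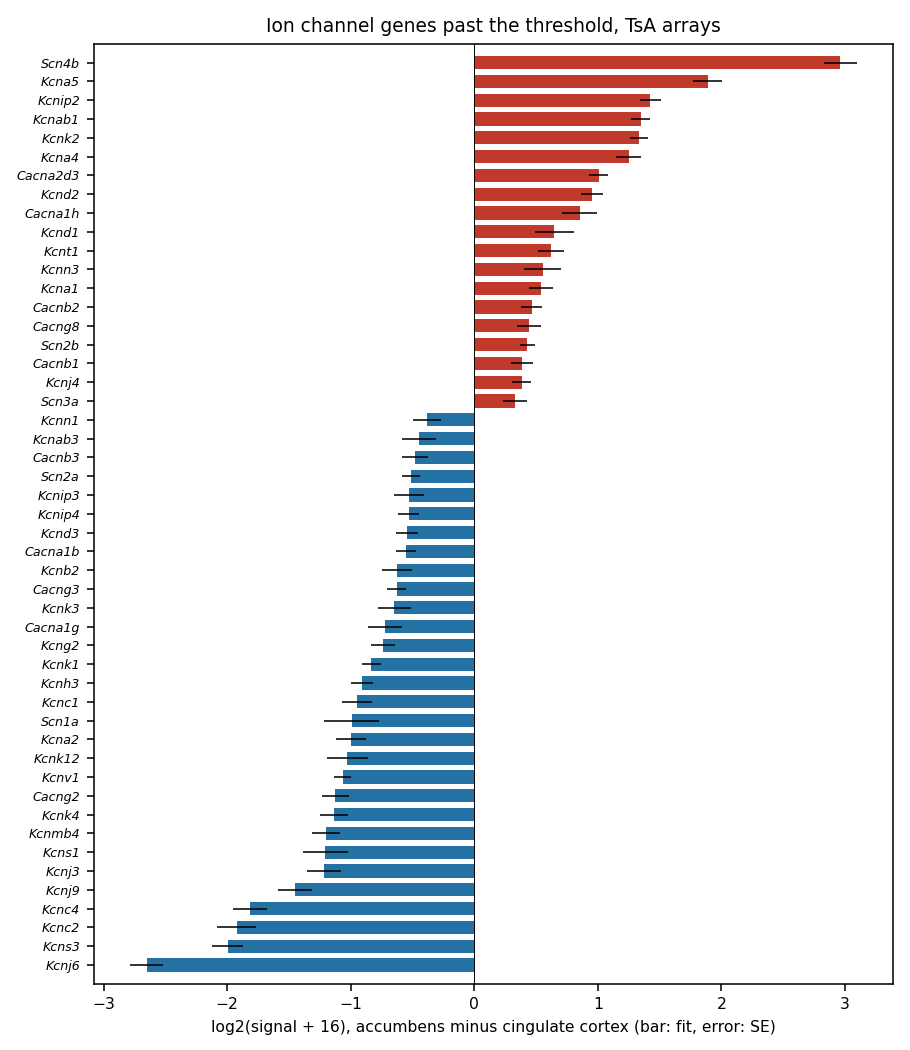
Log2 difference (bars) with its SE (error bars) of the 49 ion channel genes past the threshold, accumbens minus cingulate cortex, on log2(signal + 16) of the TsA arrays. Scn4b is the highest at 2.96 and Kcnj6 the lowest at -2.65.

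Retinoic acid genes contributed the lowest gene of the comparison and one of the highest. Besides the receptor Rarb and the degrading enzyme Cyp26b1, the receptor gene Rxrg (1.75, but -0.11 at another probe set) was higher, as were the binding protein genes Crabp1 (1.69) and Rbp4 (1.04). The degrading enzyme Cyp26a1 (-0.61) and the synthesizing enzymes Aldh1a2 (-0.99) and Aldh1a3 (-0.41) were lower. Crabp1 read 20.04, 28.6 and 38.3 on the cortex arrays and 112, 155 and 118 on the accumbens arrays. Rxrg read 57.9, 70.98 and 53.2 on the cortex arrays and 258, 223 and 241 on the accumbens arrays. Neither gene overlapped between the structures. The receptor genes Rara, Rarg, Rxra and Rxrb did not pass (-0.40, -0.08, 0.06 and 0.16). The list of 19 held 6 higher and 4 lower, a share of 52.6% against 25.0% of all genes. Its median was 0.013, and negative after quantile normalization or centring.

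Axon guidance genes were split evenly, 15 higher and 15 lower of 51, a share of 58.8% against 25.0% of all genes. With wash batch as a term 2 and 6 passed. The receptors for myelin-associated inhibitors were lower: Rtn4r, the Nogo receptor, read 193, 227 and 180.1 on the cortex arrays and 26, 17.2 and 24.2 on the accumbens arrays (-2.49 ± 0.13), and its relatives Rtn4rl2 and Rtn4rl1 stood at -2.21 and -0.65. The kinase-dead Eph receptor gene Ephb6 (-2.17) and Sema3c (-1.63) were lower. Ntn1, the netrin that guides commissural axons, read 31.3, 36.2 and 28.8 on the cortex arrays and 150.0, 176 and 158 on the accumbens arrays (1.88 ± 0.10, 0.18 to 0.49 at other probe sets), and its receptor genes Unc5b (1.07) and Dcc (0.45) were higher while Unc5a (-0.77) was lower. Rtn4r and Ntn1 each separated the arrays by structure. Of 22 cadherin genes 7 were lower, led by Cdh12 (-1.31) and Pcdh8 (-0.96). Higher were 2, Cdh22 (0.94, but 0.29 at another probe set) and Pcdh18 (0.69). Together 40.9% of the cadherin genes passed, against 25.0% of all genes. Only 1 was lower and 1 higher with wash batch as a term, and 4 were lower without the first or the second accumbens array.

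Immediate-early genes, which firing neurons induce quickly, were lower in accumbens for 18 of 44 genes and higher for 0. The share lower was 40.9%, against 11.5% of all genes. Without the first or the third cortex array 1 was higher, and with wash batch as a term 14 were lower and 0 higher. The lowest member was Nrn1, described above, which is also among the cortical glutamatergic markers. Bdnf, the neurotrophin that activity induces, read 150.2, 112 and 132 on the cortex arrays and 16.99, 14.3 and 18.98 on the accumbens arrays (-2.16 ± 0.12, -1.02 at another probe set). Ptgs2, cyclooxygenase-2, read 384, 293 and 358 on the cortex arrays and 53.4, 59.98 and 65.6 on the accumbens arrays (-2.25 ± 0.11). Arc, a synaptic protein of activity-dependent plasticity, read 690.0, 783 and 807 on the cortex arrays and 341, 250.4 and 395 on the accumbens arrays (-1.19 ± 0.15). All 3 genes stood higher on every cortex array than on any accumbens array. Ier5 (-1.92, but -1.64 to -0.26 at others), Egr2 (-1.16), Egr1 (-0.63) and Fos (-0.53, but 0.04 at another probe set) were lower, and Fosb, Homer1 and Egr3 did not pass (-0.27, -0.25 and -0.01), although other Homer1 probe sets stood at -1.504 to -0.34. With no animal at rest in the series, a standing difference between the tissues and a difference in induction cannot be told apart.

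Genes of histone deacetylases, not all of them targets of deacetylase inhibitors, were read together with those of acetyltransferases. They passed the threshold about as often as other genes, 20.7% of them against 25.0% of all genes. Of 29 genes 5 were higher and 1 lower, and 1 and 0 with wash batch as a term. Without the second cortex array 8 were higher, and the lower gene passed only with all arrays or without the first accumbens array. The higher were Sirt2 (1.07), a deacetylase abundant in oligodendrocytes, Hdac11 (0.83), and the acetyltransferase genes Kat2b (0.97), Kat6a (0.47, but -0.02 to 0.55 at others) and Ep300 (0.37, but 0.12 at another probe set), and the lower was Kat5 (-0.27). Sirt2 read 441, 507 and 448 on the cortex arrays and 1001, 917 and 1063 on the accumbens arrays. Hdac11 read 426, 478 and 410.0 on the cortex arrays and 802, 814 and 758 on the accumbens arrays. Both were higher on every accumbens array than on any cortex array. The genes of class I enzymes Hdac1, Hdac2, Hdac3 and Hdac8 did not pass (0.13, 0.03, 0.01 and 0.23).

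All 32 measured genes of myelin and oligodendrocytes were higher in the accumbens, with a median of 1.61. Mag, the myelin-associated glycoprotein at the axon contact, read 186, 189 and 193 on the cortex arrays and 891, 855 and 1144 on the accumbens arrays (2.24 ± 0.11). Opalin, a paranodal protein, read 68.7, 91.9 and 70.1 on the cortex arrays and 332, 372 and 540.5 on the accumbens arrays (2.19 ± 0.17). Neither gene overlapped between the structures. The oligodendrocyte transcription factor Myrf was higher by 1.84, Sox10 by 1.52 and Olig2 by 0.55, but 0.26 at another probe set. Mbp, myelin basic protein, was higher by 0.39, but -0.09 to 1.37 at others. With wash batch as a term 26 of the 32 passed, all higher. The summed signal of the list was 10832 to 11290.0 on the cortex arrays and 25911 to 31031 on the accumbens arrays. These values moved with the structure beside every neuronal result above, and their part in those results was not tested. Precursor markers were higher for 8 of 13 (61.5%, against 13.5% of all genes), but for 4 with wash batch as a term.

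The share past the threshold was 25.8% for astrocyte and 25.0% for microglia markers, like the 25.0% of all genes, and 3.70% for vessel markers. Of 31 astrocyte markers 4 were higher and 4 lower, with Id4 at 0.81, Gjb6 at -0.96 and the defining genes Aqp4 and Aldoc not past the threshold (-0.05 and 0.10). Without the second cortex array or the first or second accumbens array 2 astrocyte markers were lower. Of 24 microglia markers 5 were higher, led by Ctss (0.55) and Tmem119 (0.45), and 1 lower, Lyz2 (-0.89). Without the first cortex array or the third accumbens array only 2 microglia markers passed, and without the second accumbens array 3. Of 27 endothelial and mural markers 1 was lower, Ly6e (-1.22, but -0.12 at another probe set), while 2 passed without the first accumbens array, 1 in each direction, and 2 with wash batch as a term, both lower. Cldn5 and Pecam1 stood at -0.05 and 0.06. With wash batch as a term 2 astrocyte markers and 1 microglia marker passed, and the endothelial median moved from -0.03 to -0.32.

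Of 24 meningeal and fibroblast markers 12 were lower in the accumbens on the TsA arrays, where this rested on 2 of the 3 cortex arrays. On the vehicle arrays 11 of these 12 passed in the same direction, and the list median was -0.86, against -0.67 with TsA. Igfbp2, a secreted growth factor binding protein, read 350.4, 156 and 335 on the cortex arrays and 37.8, 49.2 and 43.9 on the accumbens arrays (-2.24 ± 0.26). Dcn, the matrix proteoglycan decorin, read 110.4, 59.1 and 107 on the cortex arrays and 39.8, 28.7 and 40.3 on the accumbens arrays (-1.02 ± 0.20). The second cortex array lay between the accumbens arrays and the other cortex arrays for both genes. The summed signal of the list was 2484 on that array and up to 5379.8 on the others, against 2206 to 2414 in the accumbens. Without that array 19 members were lower, without either of the other cortex arrays 3, without the first accumbens array 6 and without the third 3. With wash batch as a term 2 passed. Aldh1a2, counted above with the retinoic acid genes, is one of these markers and read 97.95, 51.6 and 110.3 on the cortex arrays and 39.8, 37.004 and 25.7 on the accumbens arrays; its part in that result was not tested.

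Markers of regions that border the accumbens were also read, since a dissection can include them. Of 20 markers of septum, pallidum, diencephalon and neighbouring regions 7 were higher and 3 lower, with 1 lower when wash batch was a term or the first accumbens array was left out. Calcr, the calcitonin receptor gene, was higher by 2.36, the peptidase gene Ecel1 by 1.86, but 0.14 at another probe set, and Dlk1 by 1.29, while Slc17a6 was lower. The summed signal was 486 to 519 in the cortex and 937 to 1012 in the accumbens. The list shares Nts and Trh with the peptide list, and whether neighbouring tissue added to those peptide values was not tested. Markers of choroid plexus and ependyma were dim in both structures for 13 of 14, and 2 passed (14.3%, against 25.0% of all genes). These were Otx2 (0.54, but -0.14 at another probe set) and Kl (0.46), but 0 passed with wash batch as a term.

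The vehicle arrays gave a second set of 6 arrays of the same structures, with no array in common. No wash batch held vehicle arrays of both structures, so batch and structure cannot be told apart among these arrays either. On the vehicle arrays, 4568 probe sets (14.7%) and 2217 genes (15.6%) passed between accumbens and cortex. Of the 3555 genes past the threshold on the TsA arrays, 3422 (96.3%) had the same sign on the vehicle arrays, against 73.4% of all genes, and 1885 passed in the same direction. Those 1885 genes were 53.0% of the TsA calls and 85.0% of the vehicle calls, and 0 genes passed in opposite directions. All 592 genes that differed by at least 2-fold kept their sign, and 581 of them passed on the vehicle arrays too. Among leading genes the vehicle difference was 4.66 for Cartpt, 4.39 for Adora2a, 3.55 for Pdyn, -2.79 for Vip, -3.55 for Cyp26b1 and -3.14 for Nrn1. For genes of at least 2-fold the median ratio of the vehicle difference to the TsA difference was 1.01. The median spread of log2 values between arrays was 0.113 (cortex) and 0.117 (accumbens) with TsA and 0.135 and 0.158 with vehicle (SD, n = 3).

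The difference between the structures was then tested for a change with treatment, in a limma fit of all 12 arrays. It passed the threshold for 0 of 31042 probe sets (smallest Benjamini-Hochberg adjusted p = 0.908), and 1216 had an unadjusted p under 0.05 where 5% of the tests is 1552.1. That second count rested on single arrays: it was 3813 without the third accumbens vehicle array and 2473 without the first cortex vehicle array, while 0 passed the threshold in either case. The median SE of this difference was 0.176 on the log2 scale, so small changes with treatment were not detectable. The values with the smallest p are given as a description. For Dkc1, a pseudouridine synthase gene, the structure difference was 0.82 with TsA and -0.33 with vehicle, and for Palmd, a palmdelphin gene, 0.78 and -0.20. Other Palmd probe sets stood at -0.42 to -0.19 with TsA, the opposite sign. The changes were 1.16 ± 0.22 (SE) and 0.98 ± 0.24. Hsd11b2 and Mcub had positive changes of 0.72 ± 0.17 and 0.69 ± 0.17, and Iglon5, Epn3, Sp100 and Tbx19 negative ones, from -0.41 ± 0.08 in Iglon5 to -0.85 ± 0.21 in Tbx19. Epn3 was lower with TsA (-0.42), but 0.28 at another probe set. On the TsA arrays the mean signal of Hsd11b2, Iglon5, Epn3, Sp100 and Tbx19 was under 17.2 in both structures. That of Mcub was under 17.2 in the cortex.

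**Figure D5:**
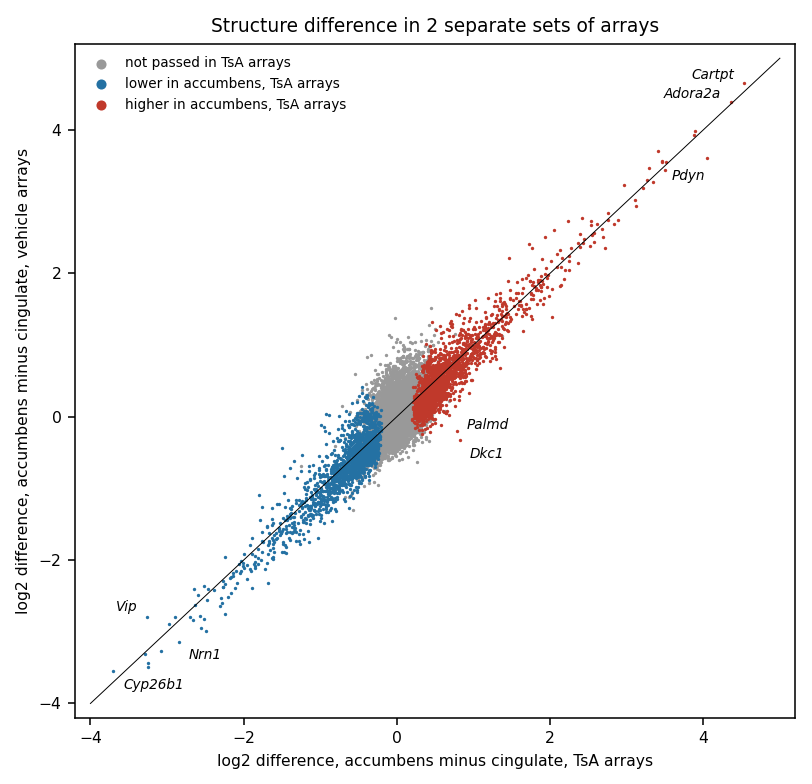
Log2 difference between accumbens and cingulate cortex of 14217 genes on the TsA arrays (x axis) and on the vehicle arrays (y axis), with the line of equal values. Red and blue points passed the threshold on the TsA arrays, higher or lower in the accumbens, and 3422 of these 3555 genes have the same sign on both axes.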

How the data were processed

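RNA was labelled with biotin from 6 µg of total RNA and read on Affymetrix Rat Genome 230 2.0 arrays. Per the submitters' processing notes, the authors made the deposited intensity values with GCOS 1.4 and MAS5. The 2% trimmed mean was 100.03 on every array, so the values had been scaled array by array, and no further normalization was applied. Probe-level scanner values were not used here, and the depth of these arrays is not a count. The run records gave the wash batches. Aligner and genome build do not apply to these values.

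Of 31099 probe sets, 57 controls were left out. Of the rest, 20826 had 1 gene symbol (14217 genes), 436 several and 9780 none. Gene IDs of 20758 were found in the RefSeq table, and 0 symbols were updated. A constant of 16 was added before log2, which understates differences of dim genes. A 2-group limma model (lmFit, eBayes with trend, 4 residual degrees of freedom) was fitted to the 6 TsA arrays without a filter, with two-sided tests and Benjamini-Hochberg adjustment at 0.05 over all probe sets. Each gene is represented by its brightest probe set over these arrays, and for genes that passed another probe set is quoted where its difference had the other sign or was under 0.5 or over 2 times that size. The vehicle arrays were fitted alike, and the change with treatment in 1 model of all 12 arrays.

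The named genes are the 12 highest and 12 lowest that passed, and, in the lists, up to 5 members per direction with the largest differences and members that did not pass; a few further list members that passed were added after their values were seen. For the change with treatment they are the 4 higher and 4 lower genes with the smallest p. The members and the 26 lists (802 entries, 3 matched by synonym, 88 not matched) were chosen with earlier results of these data known. No list was tested as a set. Design rules had named proteins for display, and promoters are shown in their place. Same-numbered TsA arrays of the structures deviated together at correlations of 0.082, 0.035 and 0.110, and differently numbered ones at -0.079 to -0.0045. These small values do not settle whether the numbers pair the arrays, and the main fit did not pair them.

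Tested on simulated data with 31042 probe sets, the TsA comparison found 82 of 100 changed by 1 on the log2 scale, 27 of 100 changed by 0.5, and called 5 of 30842 unchanged ones. Far fewer probe sets were changed there than the 6946 that passed in the data. The simulated noise was independent and held no batch difference. These rates therefore do not give the sensitivity or the false calls of the real comparison. Alternatives were other constants, a filter on dim probe sets, quantile normalization and centring, fits without the trend, with array weights or with all 12 arrays, wash batch and replicate number as blocks, the mean over probe sets of a gene, and leaving out each array. Fits used limma 3.58.1 in R 4.3.3, tables used pandas 2.3.3 and numpy 2.4.6 in Python 3.11.15, and figures matplotlib 3.10.9.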

Additional observations from a re-analysis of the deposited data

How the results depend on the processing

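For the TsA comparison, the count of 6946 probe sets stayed within 1.5 times under other constants (6906 with 1, 6946 with 64), a filter on dim probe sets (6921 of 18625), quantile normalization (6720), centring on array medians (7064), no trend (7026), array weights (7543), all 12 arrays in the fit (5640) and a replicate block (6859, of which 6412 were among the 6946). Leaving out 1 array gave 5070 to 6676, with 2842 to 3739 higher and 2228 to 2937 lower. The count moved with wash batch: as a random block it was 10727 (6283 higher, 4444 lower, at a negative consensus correlation of -0.25), and as a fixed term among 12 arrays 2162 (995 higher, 1167 lower), of which 1969 were among the 6946. No call changed direction under any of these. The split depended on scaling: 57.9% of calls were higher as deposited, 51.5% after quantile normalization and 40.8% after centring, which shifts all differences by 0.086. The 24 leading genes stayed past the threshold in all 408 alternative values. On vehicle arrays, leaving out 1 array gave 2382 to 5004 (1311 to 2726 higher, 1071 to 2278 lower) around 4568, moving most without cortex vehicle array 2 (2542), cortex vehicle array 3 (2382) or accumbens vehicle array 2 (2543). The change with treatment gave 0 under all settings. Of the list medians, those near 0 turned sign: transmitter genes from 0.013 to -0.072 with centring, neuropeptides from 0.058 to -0.027, astrocyte markers from 0.035 to -0.050, retinoic acid genes from 0.013 to -0.072 and to -0.036 with quantile normalization, and sodium, calcium and HCN channels from 0.084 to -0.0018 with centring and -0.072 without dim probe sets. The list counts with wash batch as a term or without 1 array were alternatives chosen after seeing the data. The cause of these changes was not tested. Among vehicle arrays same-numbered pairs deviated together at 0.545, 0.071 and 0.059, and differently numbered ones at -0.547 to 0.490. There the replicate block gave 5193 (2990 higher, 2203 lower), of which 4285 were among the 4568. For the change with treatment it gave 0, with 1885 at an unadjusted p under 0.05. Probe sets under 17.2 limit what the dim genes can show.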

Other observations

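Several genes outside the 26 lists differed by at least 4-fold, 48 in all, and the following were chosen after their values were seen. Lpl, which encodes the enzyme that releases fatty acids from lipoproteins, had a signal of 62.6, 47.9 and 58.5 on the cortex arrays and 486, 552 and 393 on the accumbens arrays (2.76 ± 0.13 on the log2 scale, SE). Apod, a lipid carrier of glia, was higher in the accumbens by 2.14, and Asic4, an acid-sensing channel relative, by 2.39. P2ry1, a purinergic receptor gene, was higher by 2.42. Each of these was above the cortex on all 3 accumbens arrays.

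Lower in the accumbens was Stx1a, the syntaxin of the presynaptic release machinery, with a signal of 803, 982 and 1013 on the cortex arrays and 175, 115 and 164 on the accumbens arrays (-2.51 ± 0.15). C1ql3, a secreted synapse organizer of cortical neurons, was lower (-2.55, but -0.04 at another probe set), and so were Cbln2, of the same protein superfamily (-2.39, but -0.86 at another probe set), the chemokine gene Cxcl12 (-2.004, but -1.53 to 0.11 at others) and the neurturin receptor gene Gfra2 (-2.03). No accumbens array reached a cortex array for any of these 5 genes.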
